A study of Mus musculus with 18 samples.

Results

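The 38 Hox genes described here were taken by symbol from the gene list of every library, out of 31053 mouse genes. They comprise 10 members of the HoxA cluster (chr6:52162417-52260880, minus strand), 10 of HoxB (chr11:96194316-96368256, plus strand), 9 of HoxC (chr15:102921103-103036852, plus strand) and 9 of HoxD (chr2:74668310-74765142, plus strand), with positions on mouse build mm10 from GENCODE vM21. By paralogue number, 11 members belong to groups 1 to 4 (called anterior below), 11 to groups 5 to 8 (central) and 16 to groups 9 to 13 (posterior). Transcripts were counted in dissociated single whole mouse embryos at embryonic day 8.5 (E8.5) by droplet single-cell RNA sequencing of transcript 3' ends, in 18 libraries, each labelled as 1 embryo. The groups were 7 wild-type (WT) embryos, 3 embryos null for Dnmt1 (Dnmt1 KO), 4 null for Dnmt3a (Dnmt3a KO) and, by their labels, 4 null for Dnmt3b (Dnmt3b KO), of which libraries 1 and 2 shared most cell barcodes and were counted as 1. All embryos shared the 129S4/SvJae strain background and came from heterozygous matings, with the genotype read by PCR from the ectoplacental cone. The mating from which each WT embryo came is not given in the labels, so WT embryos could not be set beside mutant littermates. Embryos labelled as lacking DNMT1, the enzyme that copies methylation onto newly made DNA strands, or the de novo enzymes DNMT3A or DNMT3B were compared with WT for their Hox gene levels. Dnmt3b KO is used below as the label of its libraries, since their counts do not check it.

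Hox genes encode homeodomain transcription factors that give cells their position along the head-to-tail axis. Within each cluster the order of the genes along the chromosome matches the order in which they are switched on and the position of their anterior expression limit, so that low paralogue numbers start early and reach the hindbrain, while high numbers start later and stay near the tail bud and, outside the embryo proper, the allantois. At the stage sampled here, neuromesodermal progenitors (NMPs) at the posterior end are still adding trunk tissue and activating central and posterior Hox genes.

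Promoter windows of 6 members are printed to show how rich their upstream sequence is in CpG, the dinucleotide that the 3 enzymes methylate. Each is the 250 bases upstream of a transcript start in the RefSeq annotation of GRCm38.p6, on the coding strand from 5′ to 3′, in lower case with each CG in capitals. Hoxa9 (chr6:52227371-52227620, minus strand), Hoxa10 (chr6:52234940-52235189, minus strand), Hoxb4 (chr11:96318017-96318266, plus strand), Hoxb8 (chr11:96281655-96281904, plus strand) and Hoxd10 (chr2:74691641-74691890, plus strand) were lower in Dnmt1 KO embryos, and Hoxd13 (chr2:74667975-74668224, plus strand) was not called.
Hoxa9: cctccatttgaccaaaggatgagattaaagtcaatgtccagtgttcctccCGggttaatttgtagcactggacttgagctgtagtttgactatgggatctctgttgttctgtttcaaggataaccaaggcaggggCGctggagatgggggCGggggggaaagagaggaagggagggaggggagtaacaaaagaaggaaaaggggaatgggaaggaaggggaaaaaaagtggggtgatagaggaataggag
Hoxa10: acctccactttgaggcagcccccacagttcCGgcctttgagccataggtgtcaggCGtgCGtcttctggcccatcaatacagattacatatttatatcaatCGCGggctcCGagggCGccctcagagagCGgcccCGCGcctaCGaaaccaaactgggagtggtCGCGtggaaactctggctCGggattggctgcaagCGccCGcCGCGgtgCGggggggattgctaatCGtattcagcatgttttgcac
Hoxb4: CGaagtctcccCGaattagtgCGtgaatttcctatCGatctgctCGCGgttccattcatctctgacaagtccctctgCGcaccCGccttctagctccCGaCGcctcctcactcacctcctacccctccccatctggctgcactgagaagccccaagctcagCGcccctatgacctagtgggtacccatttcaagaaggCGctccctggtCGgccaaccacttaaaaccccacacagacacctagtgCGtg
Hoxb8: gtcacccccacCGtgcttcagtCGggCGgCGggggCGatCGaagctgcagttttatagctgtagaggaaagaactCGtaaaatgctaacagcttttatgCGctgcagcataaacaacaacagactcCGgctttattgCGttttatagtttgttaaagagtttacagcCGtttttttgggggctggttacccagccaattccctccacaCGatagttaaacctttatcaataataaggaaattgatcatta
Hoxd10: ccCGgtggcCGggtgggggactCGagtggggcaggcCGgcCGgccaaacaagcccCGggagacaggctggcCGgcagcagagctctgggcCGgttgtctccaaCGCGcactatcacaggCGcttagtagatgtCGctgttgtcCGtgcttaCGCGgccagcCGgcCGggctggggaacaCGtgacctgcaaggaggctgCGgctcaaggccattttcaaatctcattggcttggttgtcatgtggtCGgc
Hoxd13: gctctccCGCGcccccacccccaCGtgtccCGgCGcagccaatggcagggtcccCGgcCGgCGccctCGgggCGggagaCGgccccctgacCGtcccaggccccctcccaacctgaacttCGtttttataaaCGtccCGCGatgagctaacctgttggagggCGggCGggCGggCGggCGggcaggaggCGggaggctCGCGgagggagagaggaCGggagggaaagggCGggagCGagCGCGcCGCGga
The letters CG, which read the same on both strands, occurred 3 times in the Hoxa9 window, a number that 71.0% of all 32851 windows of this length in the table reached or passed. The printed windows of Hoxa10 and Hoxd10 each held 20 (reached by 17.9% of all windows), that of Hoxb4 held 14 (29.4%), that of Hoxb8 held 12 (33.5%) and that of Hoxd13 held 31 (5.19%). A further Hoxa10 window (chr6:52240855-52241104), not printed, held 7 (46.3%). Windows were given for 22 of the 38 genes, 24 in all, and held a median of 12.5 CG (range 2 to 35) against a median of 6 over all windows, of which 92.1% held at least 1. The windows of the 17 genes that fell in Dnmt1 KO embryos held a median of 12 and those of the 5 other genes a median of 13. These counts describe the letters only, since methylation was not measured in these libraries.

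Of 162336 cell barcodes, 109962 cells were kept after filters on depth, mitochondrial and ribosomal share and doublets (34421 from WT embryos, 7068 from Dnmt1 KO, 34004 from Dnmt3a KO and 34469 from Dnmt3b KO), with 36606912 to 233594354 unique molecular identifiers (UMIs, each tagging 1 captured transcript) per library. Levels are given as CPM, the UMIs of a gene per 1000000 UMIs of all kept cells of an embryo. Because reads come from transcript ends, CPM is not scaled to gene length, and levels are compared between embryos and not between genes. Dnmt1 stood at 14.9 to 15.7 CPM in the Dnmt1 KO embryos against 83.2 to 115.6 in WT, and Dnmt3a at 7.39 to 11.8 CPM in the Dnmt3a KO embryos against 23.1 to 34.9 in WT. Dnmt3b was not lower in the libraries labelled Dnmt3b KO (54.3 to 68.3 CPM against 35.3 to 87.2 in WT), so the counts do not check that label, and Dnmt3a was at 15.02 and 7.56 CPM in the libraries labelled Dnmt3b KO 11 and 12. The libraries Dnmt3b KO 1 and 2 shared 12249 cell barcodes, with a median correlation of 0.75 between cells of the same barcode against 0.52 for other pairs of cells. Barcodes found in both enter the cell totals above from each library. The pair was counted as 1 sample in every test, so that 17 samples entered the fits and n is 3 for this group. By Y-linked counts WT 2 was male and the other 6 WT embryos female, and every Dnmt1 KO and Dnmt3a KO embryo was male. Sex is therefore nearly aligned with the Dnmt1 and the Dnmt3a genotype. In the Dnmt3b KO, libraries 1, 2 and 11 were male and library 12 female.

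In WT embryos the Hox genes differed in the cell class that held their highest level. Classes were rebuilt by clustering WT cells without the Hox genes and naming clusters after marker genes, hence the names below are approximate (NMP-like and so on), and clusters that could not be named are given by number with their leading genes. Over 29 classes, the highest mean level was found in NMP-like cells for 10 members, in allantois-like cells for 9, in cluster 2 (Osr1, Foxf1, Wnt5a) for 7, in presomitic mesoderm-like cells for 3 (Hoxa4, Hoxb1, Hoxb3), in extraembryonic (ExE) mesoderm-like cells for 3 (Hoxb5, Hoxb6, Hoxb7) and in hindbrain and spinal cord-like cells for 2 (Hoxa2, Hoxd3). For 27 members the WT embryos of the highest class overlapped with those of the next class, and for 10 they stood apart. Hoxd12, a digit-patterning gene, had 0 UMIs in WT.

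Of the 16 posterior genes, 8 had their highest mean in allantois-like cells (the allantois is the stalk that links the embryo to the placenta), 4 in cluster 2, 2 in NMP-like cells and 1 in cluster 34. Hoxa13, which acts in the umbilical vessels and later in the digits, measured 19.1 ± 3.49 CPM in allantois-like cells (mean ± SD over 6 WT embryos) and 2.28 ± 0.562 in cluster 2, the class next in order. Hoxa10, later active in the uterus and lumbar skeleton, measured 85.3 ± 14.6 CPM in allantois-like cells against 19.2 ± 3.87 in cluster 2, and Hoxa11, a forelimb and kidney gene, measured 38.5 ± 4.54 against 8.75 ± 4.08 in endothelium-like cells. Hoxc10, Hoxc11, Hoxd10 and Hoxd13 also had their highest level there with no overlap. Among central and posterior genes of the trunk, Hoxb8 reached 231 ± 33.5 CPM in NMP-like cells (n = 7) against 145 ± 20.4 in cluster 2, and Hoxb9 reached 245 ± 13.1 against 172 ± 28.6. Hoxd9 was highest in cluster 2 (80.7 ± 10.5 CPM, against 31.3 ± 7.43 in allantois-like cells). At the anterior end, Hoxa2, the most anteriorly expressed member and a regulator of the second pharyngeal arch, measured 32.01 ± 6.30 CPM in hindbrain and spinal cord-like cells and overlapped with somitic mesoderm-like cells (23.9 ± 3.66). Hoxb1, which specifies the hindbrain segment of the facial nerve, was at 158 ± 28.8 CPM in presomitic mesoderm-like cells.

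**Figure D1:**
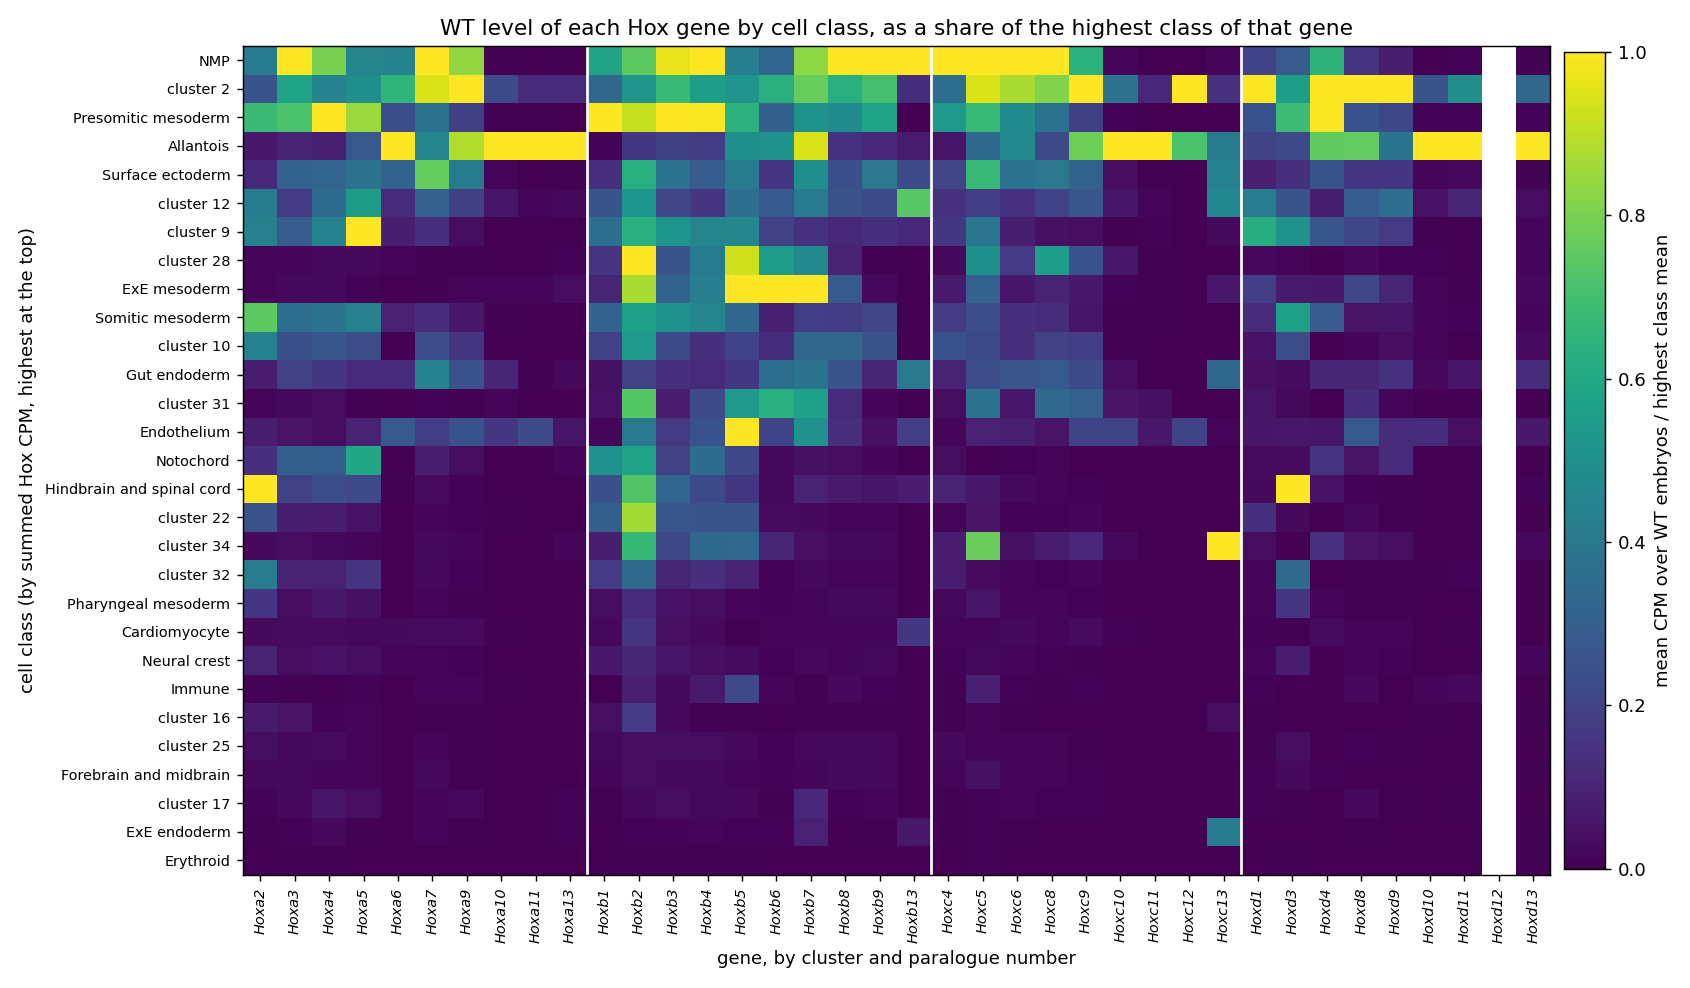
Mean CPM of each Hox gene (columns, in cluster order) in each WT cell class (rows), as a share of the highest class mean of that gene. Means are over WT embryos with at least 25 cells of the class, and colours do not compare levels between genes. Genes of each band differ in spread, with Hoxb2 over 5 CPM in 25 of 29 classes, Hoxd3 in 4, Hoxb9 in 16 and Hoxa13 in 1, and Hoxa10, Hoxa11 and Hoxa13 are highest in the allantois row (85.3, 38.5 and 19.1 CPM).

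Loss of Dnmt1 was accompanied by lower counts of most Hox genes over the whole embryo. Each gene was tested on UMIs summed per embryo with edgeR's quasi-likelihood test, and a gene was called when its p adjusted over all 18763 genes tested (Benjamini-Hochberg) was under 0.01 and its log2 fold change was at least 1 in size. Of the 38 members, 35 passed the filter on low counts, while Hoxb13, Hoxc12 and Hoxd12 did not. In Dnmt1 KO against WT 27 of the 35 were called, 26 lower and 1 higher, where 14.1% of all genes tested were called (6.05% lower and 8.09% higher). The median log2 fold change was -1.83 over the 35 members and 0.01 over all genes. For 30 members every Dnmt1 KO embryo lay below every WT embryo, which held for 16.4% of all genes, for 1 member every KO embryo lay above (10.9% of all genes), and 4 overlapped. Summed over all Hox genes, the level was 161, 88.6 and 191 CPM in Dnmt1 KO embryos 1, 2 and 3, and ranged from 375 to 535 CPM in WT. In sums over a whole embryo, fewer cells of a type and less RNA per cell cannot be told apart. The paper staged embryos by cell type proportions, in a set that also held embryos of an earlier study. It reported a minor delay of the Dnmt1 KO, while most WT, Dnmt3a KO and Dnmt3b KO embryos matched the latest reference stages. The groups may thus differ in stage, and the part of stage in the Hox values was not tested.

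**Figure D2:**
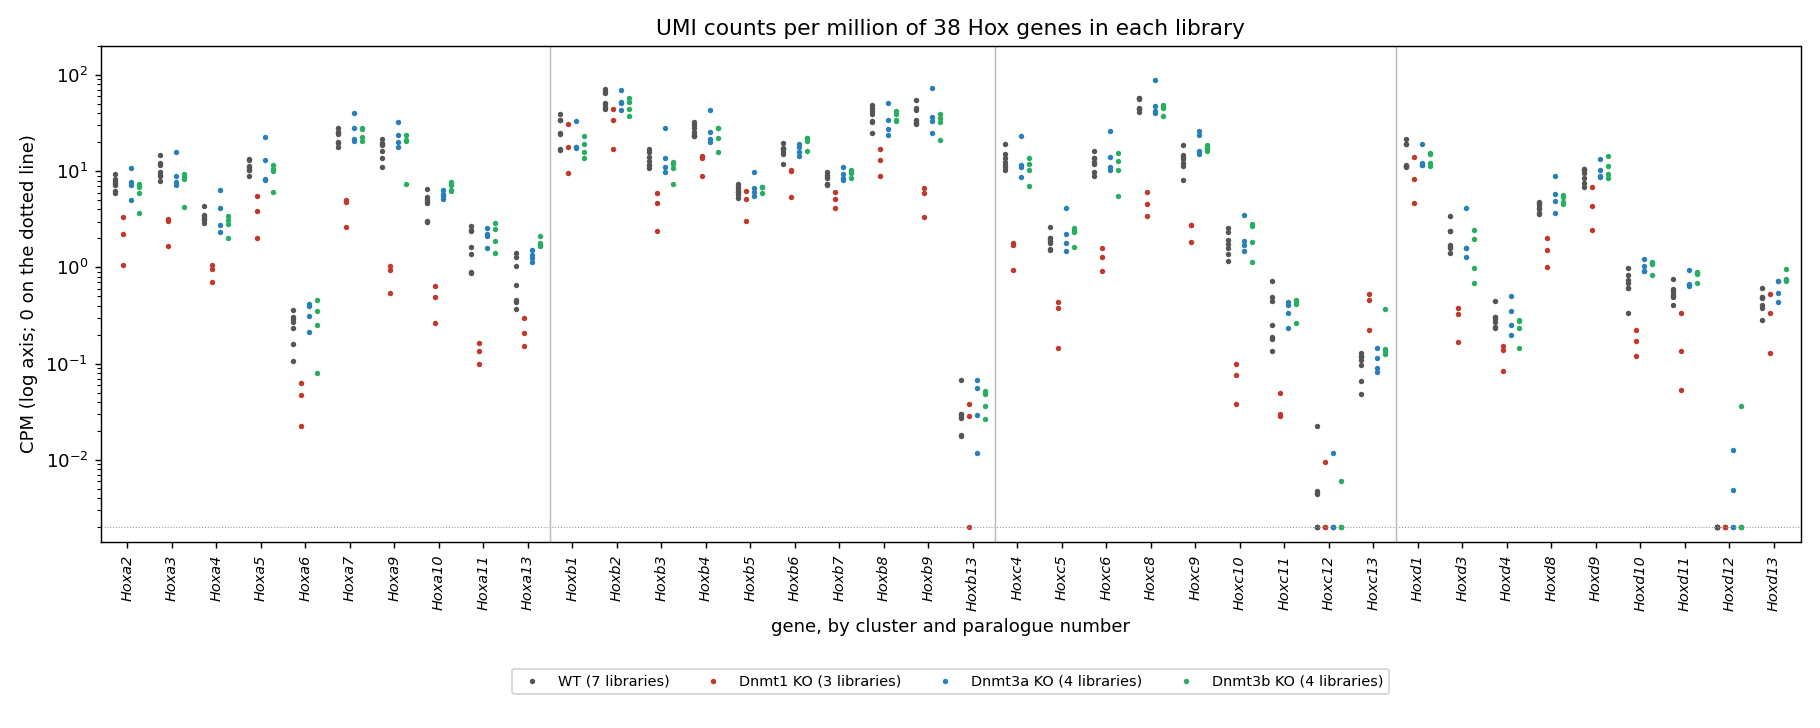
Level of the Hox genes in every embryo (points, CPM on a log axis), by genotype. The Dnmt1 KO points lie under the WT points for 30 of the 35 members tested, with Hoxc13 as the gene that lies above.

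All 10 HoxA members fell in Dnmt1 KO embryos, with a median log2 fold change of -2.16. Hoxa2, the hindbrain and pharyngeal arch gene, measured 2.22, 1.06 and 3.37 CPM in Dnmt1 KO embryos 1, 2 and 3 (the order used throughout), and 5.97, 7.57 and 9.34 as lowest, median and highest of WT. Its log2 fold change was -1.69 ± 0.30 (standard error, SE) at an edgeR adjusted p of 0.000355, with no overlap between the groups. Hoxa3, needed for the thymus and parathyroid, was at 3.18, 1.67 and 3.07 CPM against 7.95, 9.80 and 14.9 in WT, a log2 fold change of -1.94 ± 0.28 (edgeR adjusted p = 4.90e-05). For Hoxa4, a patterning gene of the cervical spine, the 3 KO embryos stood at 0.967, 0.706 and 1.05 CPM, under the WT range of 2.91 to 4.32 with its median of 3.23 (log2 fold change -1.83 ± 0.26, edgeR adjusted p = 4.27e-05). Hoxa5 acts in the lung and at the border of neck and thorax. It gave 3.90, 2.04 and 5.48 CPM in the KO and 8.99, 11.1 and 13.4 in WT, with a log2 fold change of -1.49 ± 0.31 (edgeR adjusted p = 0.00126). Dnmt1 KO 2 was the lowest of all embryos for each of these genes. The annotated span of Hoxa3 overlaps those of Hoxa4, Hoxa5 and Hoxa6 on the same strand, so that reads could have been divided differently between these 4 genes.

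Among the central HoxA genes, Hoxa7, a patterning gene of the upper thorax, was at 5.05, 2.65 and 4.81 CPM in the KO embryos against 17.7, 24.1 and 27.8 in WT, a log2 fold change of -2.39 ± 0.23 (edgeR adjusted p = 5.80e-07). Hoxa6 was sparse, with 13 UMIs over the 3 KO embryos and 288 over the 7 WT embryos. Its levels of 0.0479, 0.0228 and 0.0627 CPM stayed under the WT range of 0.107 to 0.358 (median 0.273), with a log2 fold change of -2.46 ± 0.57 (edgeR adjusted p = 0.00293). Of the posterior members, Hoxa9, Hoxa10 and Hoxa11 had larger changes than these, and Hoxa13 had a smaller one. Hoxa9, a regulator of blood stem cells and of the thoracic and lumbar spine (ENSMUSG00000038227, chr6:52223100-52231089), was at 0.938, 0.546 and 1.03 CPM in the KO embryos, while WT ran from 11.1 to 21.3 with a median of 18.5. It was 19.8-fold lower (log2 fold change -4.31 ± 0.38, edgeR adjusted p = 2.57e-07). Hoxa10 stood at 0.498, 0.266 and 0.639 CPM against 2.94, 4.91 and 6.53 in WT (log2 fold change -3.27 ± 0.30, edgeR adjusted p = 3.56e-07). Hoxa11 gave 0.134, 0.0987 and 0.163 CPM against 0.879, 1.63 and 2.72 (log2 fold change -3.70 ± 0.47, edgeR adjusted p = 1.22e-05). Hoxa13, the last gene of the cluster, gave 0.211, 0.152 and 0.301 CPM against 0.366, 0.658 and 1.41 (log2 fold change -1.85 ± 0.43, edgeR adjusted p = 0.00299). The KO and WT embryos did not overlap for any HoxA gene. Hoxa6 and Hoxa13 no longer passed the test without Dnmt1 KO 1 (edgeR adjusted p = 0.0151 and 0.0183) or without Dnmt1 KO 2 (0.0288 and 0.0279), nor did Hoxa5 without Dnmt1 KO 2 (0.0120).

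HoxB had the smallest median change of the 4 clusters, with 4 of 9 tested members called lower and a median log2 fold change of -0.85. Hoxb9, a thoracic patterning gene, was at 6.68, 3.35 and 5.90 CPM in the KO embryos against 30.9, 33.7 and 55.3 in WT, a log2 fold change of -2.80 ± 0.31 (edgeR adjusted p = 2.55e-06). Hoxb8, which acts in dorsal spinal cord neurons and in a microglial lineage, stood at 16.8, 9.01 and 12.98 CPM against 24.98, 39.3 and 49.0 (log2 fold change -1.48 ± 0.21, edgeR adjusted p = 3.24e-05). Hoxb3, expressed up to the posterior hindbrain, gave 4.65, 2.37 and 5.90 CPM against 10.7, 12.8 and 16.9 (log2 fold change -1.56 ± 0.30, edgeR adjusted p = 0.000580). Hoxb4, known for expanding blood stem cells in culture, gave 13.9, 8.81 and 14.4 CPM against 23.3, 25.7 and 32.5 (log2 fold change -1.04 ± 0.21, edgeR adjusted p = 0.000875). These 4 genes did not overlap between the groups, and Hoxb4 lost its call without Dnmt1 KO 2 (log2 fold change -0.85, edgeR adjusted p = 0.0114).

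The remaining HoxB genes did not meet both criteria. Hoxb6 and Hoxb7 passed the adjusted p but not the fold, with log2 fold changes of -0.85 ± 0.18 and -0.62 ± 0.12 (edgeR adjusted p = 0.00144 and 0.000538) and no overlap between KO and WT embryos. Hoxb2, a hindbrain gene, was at 33.7, 16.99 and 43.8 CPM in the KO embryos, each below the lowest WT embryo at 44.1, and its log2 fold change of -0.77 ± 0.22 did not pass (edgeR adjusted p = 0.0117). Hoxb1 and Hoxb5 overlapped. Hoxb1 was at 17.6, 9.51 and 30.6 CPM against 16.6, 25.2 and 38.87 in WT, with a log2 fold change of -0.41 ± 0.31 (edgeR adjusted p = 0.322), and Hoxb5, a gene of the enteric nervous system, at 5.18, 3.02 and 6.18 CPM against 5.29, 6.07 and 7.35 (-0.31 ± 0.17, edgeR adjusted p = 0.171). Hoxb13, a gene of the tail and prostate, had 38 UMIs in WT and 8 in the Dnmt1 KO and was not tested.

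HoxC showed the lowest median, -3.17, with 7 of 8 tested members called lower and Hoxc13 called higher. Hoxc8, which sets motor neuron identity at the brachial level (ENSMUSG00000001657, chr15:102990607-102994111), had the smallest p of all members: it was at 6.09, 3.42 and 4.51 CPM in the KO embryos, against 40.9, 45.0 and 57.4 in WT. This was 10.1-fold lower (log2 fold change -3.34 ± 0.22, edgeR adjusted p = 1.09e-08). Hoxc4, the most anterior gene of the cluster, gave 1.79, 0.949 and 1.73 CPM against 10.4, 12.6 and 19.2 (log2 fold change -3.09 ± 0.30, edgeR adjusted p = 8.09e-07). For Hoxc5 the KO levels were 0.441, 0.144 and 0.376 CPM against a WT range of 1.53 to 2.65 (median 1.87), a log2 fold change of -2.53 ± 0.34 (edgeR adjusted p = 2.13e-05). Its annotated span overlaps those of Hoxc6, Hoxc8, Hoxc9 and Hoxc10 on the same strand, so that reads could have been divided differently between these genes. Hoxc6, a brachial gene, gave 1.58, 0.918 and 1.28 CPM against 8.97, 12.4 and 16.1 (log2 fold change -3.24 ± 0.33, edgeR adjusted p = 1.47e-06). Hoxc9, which sets thoracic motor neuron identity, gave 2.74, 1.83 and 2.76 CPM against 8.17, 13.4 and 18.6 (log2 fold change -2.39 ± 0.26, edgeR adjusted p = 2.33e-06). All KO embryos were below all WT embryos for each of these genes.

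Hoxc10, Hoxc11 and Hoxc12 were at the edge of detection in the Dnmt1 KO, with 22, 11 and 1 UMIs. Hoxc10, a lumbar motor neuron gene (ENSMUSG00000022484, chr15:102966796-102971893), had 2163 UMIs over the WT embryos. It measured 0.0383, 0.0759 and 0.1002 CPM against 1.17, 1.77 and 2.54, and was 24.4-fold lower (log2 fold change -4.61 ± 0.44, edgeR adjusted p = 6.04e-07). Hoxc11, expressed in the hindlimb region, rested on 11 UMIs in the KO and gave 0.0287, 0.0304 and 0.0501 CPM against 0.137, 0.250 and 0.715 (log2 fold change -3.25 ± 0.59, edgeR adjusted p = 0.000423). The call of Hoxc11 was lost with samples thinned to the smallest total (edgeR adjusted p = 0.0409). Hoxc13, known for its role in hair and nails (ENSMUSG00000001655, chr15:102921103-102928814), was the gene that rose, with 0.536, 0.455 and 0.226 CPM against 0.0488, 0.109 and 0.128 in WT, a 4.38-fold difference with no overlap (log2 fold change 2.13 ± 0.35, edgeR adjusted p = 0.000144). Of its 134 UMIs in the Dnmt1 KO, 104 came from ExE endoderm-like cells, which made up 21.2% ± 10.6 of KO cells and 12.8% ± 3.35 of WT cells. Without ExE ectoderm-, ExE endoderm-, erythroid-, megakaryocyte- and immune-like cells the Hoxc13 difference was 0.51 ± 0.45 on the log2 scale (edgeR adjusted p = 0.407) and the call was lost. Hoxc12 had 7 UMIs in WT and 1 in the Dnmt1 KO and was not tested.

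In HoxD, 5 of 8 tested members fell and the median log2 fold change was -1.32. Hoxd3, a gene of the first neck vertebra, was at 0.326, 0.167 and 0.376 CPM in the KO embryos against 1.42, 1.73 and 3.41 in WT (log2 fold change -2.79 ± 0.45, edgeR adjusted p = 0.000135). Hoxd8 gave 1.503, 1.01 and 2.005 CPM against 3.59, 4.12 and 4.76 (log2 fold change -1.41 ± 0.22, edgeR adjusted p = 9.75e-05). Hoxd10, which acts with Hoxc10 in lumbar motor neurons, gave 0.172, 0.121 and 0.226 CPM against 0.338, 0.683 and 0.998 (log2 fold change -1.95 ± 0.31, edgeR adjusted p = 0.000106). The call of Hoxd10 was lost with samples thinned to the smallest total (edgeR adjusted p = 0.0639). Hoxd11, the partner of Hoxa11 in the forearm and kidney, gave 0.134, 0.0531 and 0.338 CPM against 0.410, 0.530 and 0.757 (log2 fold change -1.68 ± 0.37, edgeR adjusted p = 0.00187). Hoxd4, a gene of the upper neck whose span overlaps that of Hoxd3, gave 0.153, 0.0835 and 0.138 CPM against 0.235, 0.293 and 0.451 (log2 fold change -1.23 ± 0.34, edgeR adjusted p = 0.00906). For all 5 the KO embryos lay below the WT embryos. The Hoxd4 symbol is carried by a further identifier (ENSMUSG00000115956) that was tested apart and gave -2.12 ± 0.45 (edgeR adjusted p = 0.00148). That identifier held more counts, with 1514 UMIs in WT and 87 in the Dnmt1 KO, against 360 and 38 for the identifier given as Hoxd4. Sums and cell shares over the anterior genes, and sums over all Hox genes, hold both identifiers. The call of Hoxd4 held in only 12 of 28 alternatives. It was lost without any 1 of the 3 KO embryos (edgeR adjusted p = 0.0207, 0.0735 and 0.0174), without WT 1, 2, 3, 4 or 5, without Dnmt3a KO 2 or 13, without Dnmt3b KO 11, with the Y-linked counts or the reference as a covariate, after thinning, under the replicate block and without extraembryonic and blood cells, and that of Hoxd11 without Dnmt1 KO 1 (0.0169) or 2 (0.0112), with the Y-linked covariate (0.0184), after thinning (0.262) and under the replicate block (0.0224).

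Another 3 HoxD genes were not called. Hoxd9 passed the adjusted p but not the fold, at 4.39, 2.47 and 6.85 CPM against 6.92, 9.59 and 10.5 in WT (log2 fold change -0.92 ± 0.23, edgeR adjusted p = 0.00529). Hoxd1, a gene of pain-sensing neurons, was at 8.36, 4.72 and 13.9 CPM against 10.98, 11.7 and 21.4 and overlapped with WT (-0.65 ± 0.27, edgeR adjusted p = 0.0716). Hoxd13, the digit gene at the end of the cluster, was at 0.335, 0.129 and 0.5263 CPM against 0.282, 0.485 and 0.606 and likewise overlapped (-0.43 ± 0.33, edgeR adjusted p = 0.330).

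**Figure D3:**
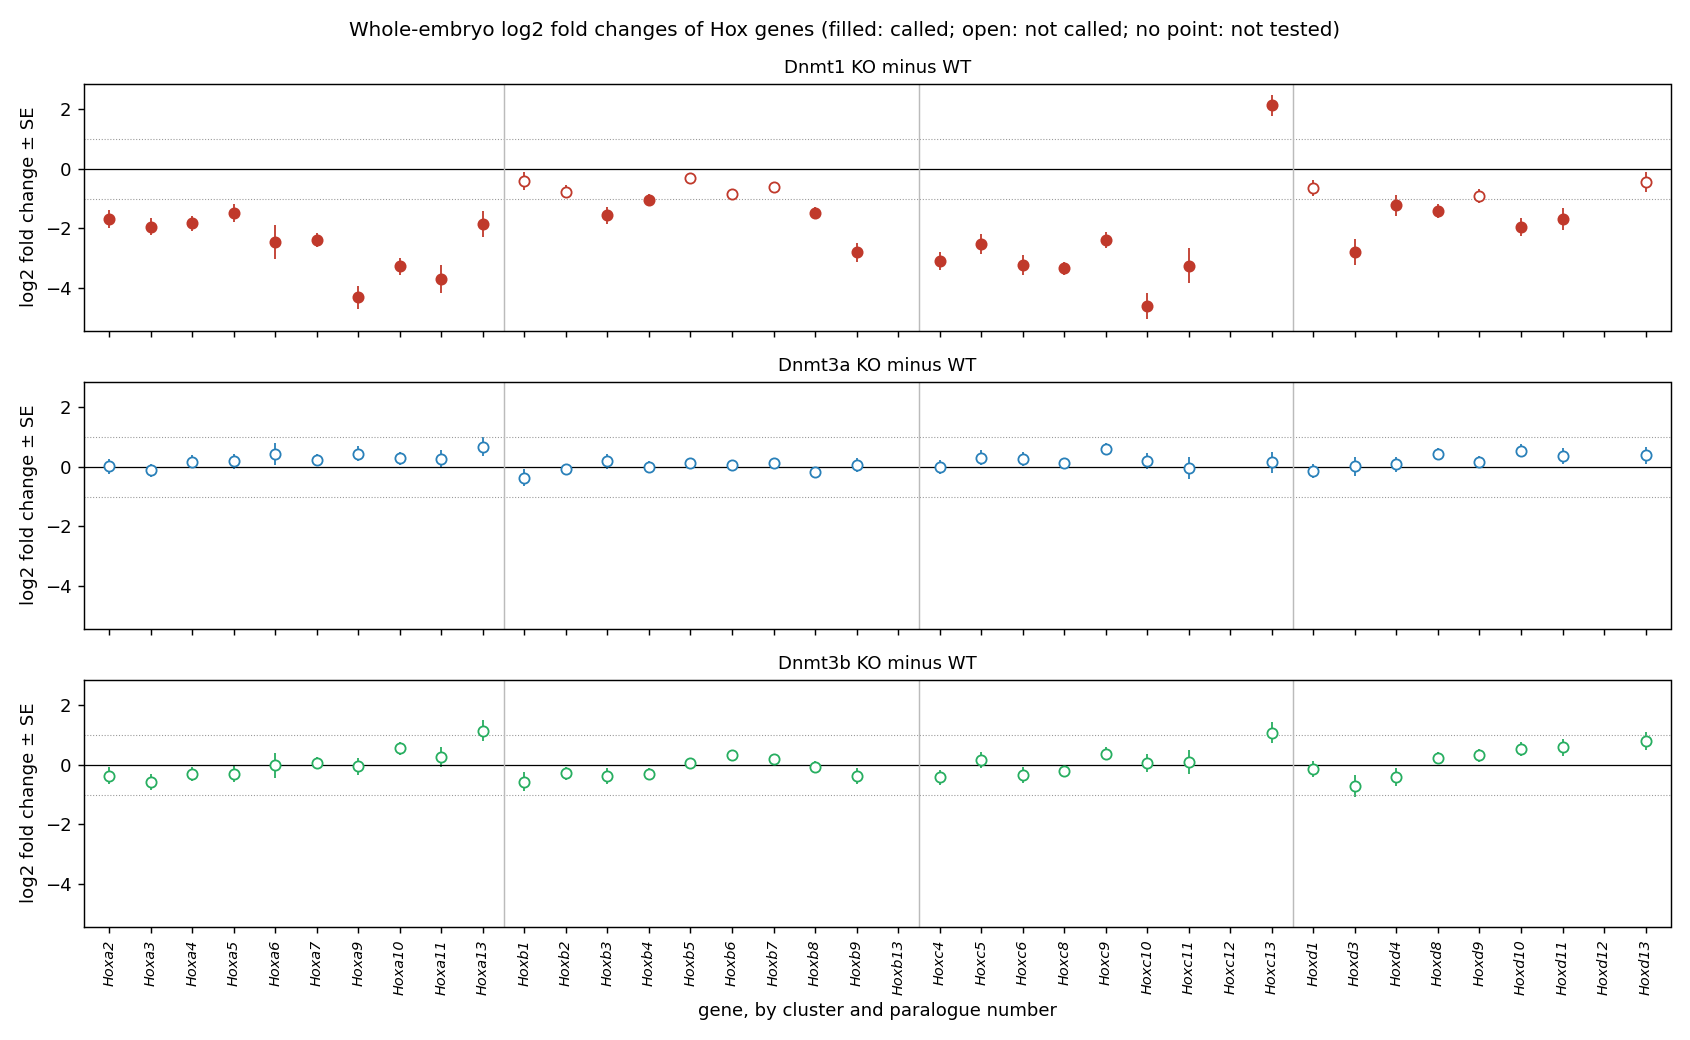
Log2 fold change against WT (KO minus WT, vertical axis) of each tested Hox gene along the 4 clusters, for the 3 KO groups, with bars of 1 SE. In the Dnmt1 KO the values reach -4.61 at Hoxc10 and -4.31 at Hoxa9 and lie above 0 at Hoxc13, while the Dnmt3a KO values lie nearer to 0 for each gene and the Dnmt3b KO values for each gene but Hoxb1 (-0.57 against -0.41 in the Dnmt1 KO) and Hoxd13 (0.80 against -0.43).

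By position along the axis, 8 of 11 anterior, 8 of 11 central and 10 of 13 tested posterior genes fell in Dnmt1 KO embryos, with median log2 fold changes of -1.56, -1.49 and -2.39. Summed CPM of the anterior genes was 84.4 ± 35.9 in the KO (n = 3) against 177 ± 33.3 in WT (n = 7), of the central genes 47.2 ± 13.5 against 171 ± 22.7, and of the posterior genes 15.2 ± 4.96 against 89.6 ± 14.4. In no band did the KO sums reach the lowest WT sum (144.5, 150.2 and 67.6 CPM), the highest KO sums being 118.8, 56.9 and 19.1. Across the 35 genes Spearman's rho between the log2 fold change and the paralogue number was -0.26, and within clusters it was -0.59 in HoxA, -0.43 in HoxB, 0.02 in HoxC and 0.12 in HoxD, as a description over genes that share the same embryos.

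Shares of cells in the classes with high Hox levels were compared by their values, with no test. Allantois-like cells formed 1.04% ± 0.280 of Dnmt1 KO cells and 2.83% ± 1.62 of WT cells, presomitic mesoderm-like cells 0.566% ± 0.145 and 2.70% ± 1.05, NMP-like cells 3.01% ± 1.00 and 4.16% ± 1.42, and cluster 2 6.49% ± 1.41 and 4.71% ± 1.66. The embryos of both groups overlapped for allantois-like cells, NMP-like cells and cluster 2, and did not for presomitic mesoderm-like cells. These shares depend on how classes were built: when all embryos were clustered together, the Dnmt1 KO embryos 1, 2 and 3 held 1, 1 and 0 NMP-like cells, 1, 1 and 6 allantois-like cells and 0, 1 and 0 presomitic mesoderm-like cells, against 69 to 303, 28 to 261 and 60 to 263 in WT embryos, and 11.4% of the KO cells called allantois-like here stayed so. ExE ectoderm-like cells, the trophoblast lineage, formed 13.7% ± 15.1 and 0.252% ± 0.643, with 31.1% in Dnmt1 KO 2, the embryo with the lowest summed Hox level. With ExE ectoderm-, ExE endoderm-, erythroid-, megakaryocyte- and immune-like cells left out, 21 members were called, Hoxa6, Hoxa13, Hoxb4, Hoxb8, Hoxc13 and Hoxd4 being lost. The share of all genes called in that fit was not set beside this count. Leaving out Dnmt1 KO 2 also gave 21 calls, and leaving out Dnmt1 KO 3 gave 30, with Hoxb2, Hoxb6, Hoxd1 and Hoxd9 added and Hoxd4 lost. Over all genes 1917 of 19265 were called without Dnmt1 KO 2 and 3123 of 19256 without Dnmt1 KO 3. With the Y-linked counts as a covariate 25 members were called, and 2051 of all 18763 genes.

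The KO groups were also compared with each other, in the fit over all 4 groups, so that WT embryos entered the filter and the estimate of spread. Against Dnmt3a KO, 28 of 35 members were called in Dnmt1 KO embryos (27 lower and Hoxc13 higher), where 13.3% of all genes were called, and the median log2 fold change was -1.997; of all genes 6.46% were called lower and 6.85% higher. Against Dnmt3b KO, 24 were called, all lower, where 8.67% of all genes were called (4.95% lower and 3.73% higher), with a median of -1.66. Hoxc8 had the smallest p in both comparisons, with log2 fold changes of -3.45 ± 0.23 (edgeR adjusted p = 4.19e-08) and -3.13 ± 0.24 (2.17e-07). Hoxb1, Hoxb2, Hoxb5, Hoxb7, Hoxd1 and Hoxd13 were called in neither. Without Dnmt1 KO 2 the 28 became 24 and the 24 became 17, where 1719 and 916 of all 19265 genes were called.

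Within cell classes, the Dnmt1 KO was tested in the 13 classes that had at least 25 cells in each of at least 3 embryos. Of 263 pairs of a Hox gene and a class, 95 were called, 92 lower and 3 higher, where 7.11% of all gene and class pairs were called. When cells of all embryos were clustered together instead, only 77 pairs could be tested and 26 were called, and with the UMIs of each sample thinned to the total of the smallest 47 were called. The share of all gene and class pairs called in these runs was not set beside the counts. Cluster 2 (Osr1, Foxf1, Wnt5a) held most calls, with 21 of 34 tested members lower (8.42% of all its genes called). It was followed by gut endoderm-like cells with 17 of 26 (8.26%), cluster 9 (Lhx1, Osr1, Prrx1) with 15 of 24 (6.08%), NMP-like cells with 14 of 25 (8.15%), hindbrain and spinal cord-like cells with 11 of 23 (8.82%) and endothelium-like cells with 8 of 27 (7.72%). In cluster 28 (Tdo2, Lum, Col3a1) 4 members fell and 1 rose of 19 (6.18%), and in cluster 22 (Sfrp5, Wnt2, Tbx5) 2 of 18 fell (5.31%). The cells compared in clusters 9 and 22 sat in different joint clusters in each group. In cluster 9, 70.9% of KO cells fell in joint cluster 25 and 25.7% in joint cluster 20, against 96.0% of WT cells in joint cluster 3, and epiblast markers were at 24.4 to 62.4 CPM in KO cells against 2.43 to 18.4 in WT. In cluster 22, 65.2% and 26.3% of KO cells fell in joint clusters 25 and 20, against 51.8% of WT cells in joint cluster 27 and 40.6% in pharyngeal mesoderm-like cells, and epiblast markers were at 19.8 to 36.7 CPM against 2.19 to 10.3 and hindbrain and spinal cord markers at 390.5 to 413 against 417 to 537. The part of these differences in the Hox values was not tested. Erythroid-like cells had 2 members higher of 18, a share near the 10.2% of all genes called there. No member was called with edgeR in ExE endoderm-like cells (0 of 23, with 14 at an unadjusted p under 0.05 and 3 called by DESeq2, where 5.51% of all genes were called) or in forebrain and midbrain-like cells (0 of 10, with 3 and 2, and 7.06%). The same held for immune-like cells (0 of 4, with 0 and 0, and 2.93%) and for cluster 16 (Dlx5, Tfap2a), which had 0 of 12, with 1 and 0, and 6.47%. An unadjusted edgeR p under 0.05 was reached by 5363 of 13717 genes in ExE endoderm-like and 3835 of 11489 in forebrain and midbrain-like cells. For immune-like cells it was 2400 of 8692 genes, and for cluster 16 it was 4046 of 12095. By sign, 19 of 23 members were negative in ExE endoderm-like cells (median log2 fold change -1.68) and 10 of 10 in forebrain and midbrain-like cells (-2.57). In immune-like cells 0 of 4 were negative (0.89), and 9 of 12 were in cluster 16 (-0.89). Medians over all genes were -0.006, -0.008, -0.001 and -0.002 in the same order. In the joint clustering 99.3% of KO forebrain and midbrain-like cells fell in an epiblast-like class. Forebrain and midbrain markers summed to 346 to 418 CPM in these KO cells and 817 to 1289 in WT. Epiblast markers summed to 364 to 417 against 14.5 to 140. In cluster 16, 91.0% of KO cells were epiblast-like there and 85.8% of WT cells surface ectoderm-like. Its epiblast markers were at 184 to 250 CPM against 17.2 to 89.5. The part of these differences was not tested. Only genes that passed the filter in a class were tested there. The allantois was too thin in the Dnmt1 KO to be tested.

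**Figure D4:**
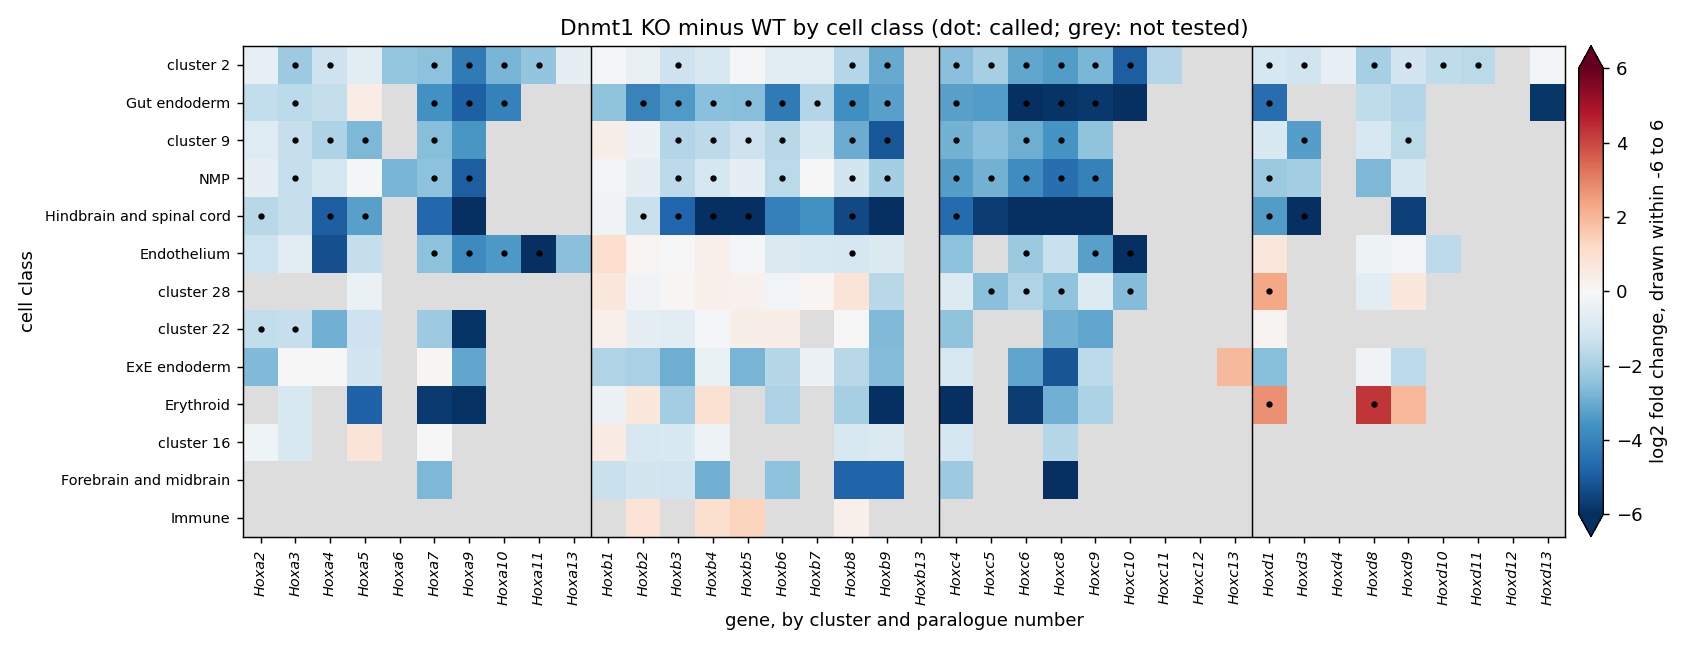
Log2 fold change of Dnmt1 KO against WT for each Hox gene (columns) in each of the 13 tested classes (rows), with called pairs marked and untested pairs left blank. Most marks are in the rows of cluster 2 (21), gut endoderm (17), cluster 9 (15) and NMP (14).

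Cluster 2, in which WT cells carry both central and posterior Hox transcripts, had the most called members. Its cells differed between the groups in other ways: in the clustering of all embryos together its KO cells fell in joint clusters 25 (53.1%; Mesp1, Car3, Pcdh19) and 20 (44.8%; Tdo2, Stard8, Peg3), and its WT cells in joint cluster 3 (63.5%; Osr1, Lhx1, Ndnf) and presomitic mesoderm-like cells (22.5%). Summed epiblast markers were at 48.2 to 63.9 CPM in KO cells of cluster 2 against 3.20 to 37.6 in WT, NMP markers at 167 to 215 against 250.1 to 366, hindbrain and spinal cord markers at 451 to 515 against 548 to 632, and erythroid markers at 14.3 to 18.8 against 23.6 to 944, and their part in the Hox values was not tested. Hoxc8 stood at 31.0, 22.6 and 15.9 CPM in cluster 2 of the 3 KO embryos, and at 210.5 to 259.6 in WT, a log2 fold change of -3.36 ± 0.20 (edgeR adjusted p = 2.47e-10). Hoxa9 was at 7.75, 5.17 and 3.75 CPM against 80.2 to 150.3 (-4.26 ± 0.39, edgeR adjusted p = 8.81e-08), and Hoxa10 at 3.03, 2.42 and 2.56 against 13.1 to 22.4 (-2.80 ± 0.22, edgeR adjusted p = 1.05e-08). None of these KO values came near the WT range. Hoxb9 was at 28.5, 15.7 and 17.8 CPM against 131 to 199 (-3.03 ± 0.27, edgeR adjusted p = 6.66e-08), and Hoxa7 at 27.5, 14.7 and 16.5 against 83.4 to 152 (-2.47 ± 0.22, edgeR adjusted p = 7.06e-08). Hoxc10 was left with 8 UMIs in the KO cells of cluster 2 against 740 in WT (-4.94 ± 0.61, edgeR adjusted p = 4.54e-06). Hoxd9, which missed the fold over the whole embryo, fell in cluster 2 from 80.7 ± 10.5 to 36.2 ± 6.52 CPM (-1.13 ± 0.12, edgeR adjusted p = 1.05e-06). Hoxb1 (48.0 ± 4.06 against 53.4 ± 22.6 CPM), Hoxa13 (1.65 ± 0.372 against 2.28 ± 0.562) and Hoxd13 (2.29 ± 1.00 against 2.44 ± 1.07) overlapped with WT and were not called there.

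Hoxb8 and Hoxc6 were called in 6 classes each, the most of any member. In gut endoderm-like cells Hoxb8 was at 6.49, 1.49 and 4.51 CPM in the KO embryos against 37.9 to 123 in WT (log2 fold change -3.69 ± 0.46, edgeR adjusted p = 8.92e-06). In NMP-like cells its values were 131, 108 and 66.4 CPM against 184 to 286 (-1.09 ± 0.16, edgeR adjusted p = 2.40e-05), and in cluster 2 they were 59.1, 40.5 and 31.7 against 123 to 173 (-1.71 ± 0.15, edgeR adjusted p = 5.82e-08). The KO embryos were thus below WT in all 3 classes, with the difference in gut endoderm-like cells of larger size. It was also called in cluster 9 (-2.99, between cells of different joint clusters as given above), hindbrain and spinal cord-like cells (-5.42, on 3 KO UMIs) and endothelium-like cells (-1.01). Of these 6, the calls in NMP-like cells (log2 fold change -0.88) and cluster 9 (edgeR adjusted p = 0.0199) were lost without Dnmt1 KO 3, that in endothelium-like cells without Dnmt1 KO 1 (log2 fold change -0.91), WT 2 (-0.90) or WT 7 (-0.99), and that in hindbrain and spinal cord-like cells without Dnmt1 KO 1 or 3 (edgeR adjusted p = 0.0164 and 0.0142). In cluster 28 Hoxb8 was instead at 45.2, 39.9 and 21.8 CPM against 20.3 to 25.4, which overlapped and missed the fold (0.79 ± 0.17, edgeR adjusted p = 0.00192).

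Hoxc6 had 0 UMIs in gut endoderm-like cells of the 3 KO embryos and 1053 in WT (19.1 ± 5.87 CPM), which makes it at least 40.6-fold lower when 3 UMIs over the KO group are taken as the limit of detection (edgeR adjusted p = 0.000118). In NMP-like cells it was at 7.83, 5.08 and 2.02 CPM against 47.0 to 123 (-3.73 ± 0.52, edgeR adjusted p = 1.72e-05) and in cluster 2 at 8.42, 9.49 and 4.69 against 47.2 to 89.9 (-3.10 ± 0.36, edgeR adjusted p = 1.78e-06). All KO values were several fold under the lowest WT embryo. In NMP-like cells and clusters 2, 9 and 28 the KO and WT cells compared sat in different classes of the joint clustering. The calls in endothelium-like cells (-2.21), cluster 9 (-2.94) and cluster 28 (-1.79) were weaker: without Dnmt1 KO 2, for instance, their edgeR adjusted p rose to 0.0492, 0.0219 and 0.0236, and without Dnmt1 KO 1 to 0.0339, 0.0295 and 0.0254.

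Hoxd1 differed between classes in sign. It was lower in NMP-like cells, at 3.92, 6.42 and 2.36 CPM against 15.5 to 27.4 in WT (-2.25 ± 0.28, edgeR adjusted p = 4.74e-06), and lower in cluster 2, at 60.7, 46.4 and 48.3 against 75.9 to 145 (-1.05 ± 0.20, edgeR adjusted p = 0.000484). It was higher in cluster 28, at 11.9, 4.28 and 16.5 CPM against 0.933 to 4.52 (2.30 ± 0.39, edgeR adjusted p = 0.000232), with Dnmt1 KO 2 inside the WT range. In the joint clustering 98.2% of the KO cells of cluster 28 fell in joint cluster 20 and 97.4% of its WT cells in joint cluster 24 (Lum, Tdo2, Col3a1), and epiblast markers were at 13.8 to 20.03 CPM in its KO cells against 0.880 to 5.25 in WT, hindbrain and spinal cord markers at 132 to 150.3 against 70.7 to 92.6, and erythroid markers at 15.1 to 20.8 against 59.9 to 1105. The part of these differences in the Hoxd1 and Hoxb8 values of cluster 28 was not tested. In erythroid-like cells Hoxd1 gave 0.954, 2.24 and 2.28 CPM on 22 UMIs against 0 to 0.467 (2.76 ± 0.68, edgeR adjusted p = 0.00398) and Hoxd8 1.27, 1.86 and 2.93 CPM on 23 UMIs against 0 to 0.125 (4.29 ± 0.61, edgeR adjusted p = 3.16e-05). Both were above WT in every KO embryo, and the Hoxd1 call was lost without Dnmt1 KO 2 (edgeR adjusted p = 0.0405) or 3 (0.0223). Erythroid markers summed to 25062 to 42028 CPM in these KO cells and to 58617 to 164793 CPM in WT, with none of the 8 markers at 0. Immune markers summed to 11.8 to 26.1 CPM against 0.513 to 1.81 and epiblast markers to 16.5 to 22.8 against 2.16 to 2.89, without overlap, and the part of these markers in the result was not tested. In the clustering of all embryos together, 76.1% of the KO cells of this class fell among immune-like cells. The cluster 2 call of Hoxd1 fell short of the fold without Dnmt1 KO 2, WT 1 or WT 6 (-0.98 each).

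In NMP-like cells, the source of the growing trunk, anterior Hox genes summed to 270 ± 39.5 CPM in the Dnmt1 KO against 587 ± 66.1 in WT, central genes to 204 ± 61.2 against 823 ± 125, and posterior genes to 67.0 ± 19.7 against 395 ± 115. Members called there span all bands, and a few, named after their values were seen, illustrate the range. Hoxc8 was at 20.6, 11.5 and 2.70 CPM in the KO embryos against 232 to 403 in WT (-4.54 ± 0.39, edgeR adjusted p = 3.65e-08), and Hoxb9 at 71.3, 59.9 and 38.5 against 226 to 262 (-2.02 ± 0.17, edgeR adjusted p = 2.44e-08). By contrast Hoxb7 (25.5 ± 6.91 against 27.01 ± 3.43 CPM, log2 fold change 0.00 ± 0.17) and Hoxb1 (76.9 ± 9.63 against 92.1 ± 17.9, -0.17 ± 0.19) overlapped with WT and were not called (edgeR adjusted p = 0.997 and 0.546). Markers of the class itself summed to 825 to 1093 CPM in the KO and 1069 to 1778 in WT, and the 5 epiblast markers, genes of the tissue from which these cells arise, to 274 to 350.1 against 7.04 to 114.5, with none at 0 in either group. Hindbrain and spinal cord markers were at 506 to 725 CPM against 785 to 988, and immune markers at 5.06 to 8.56 against 1.72 to 2.93. In the clustering of all embryos together 98.0% of these KO cells fell in an epiblast-like class. The part of these marker differences in the Hox values was not tested.

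In hindbrain and spinal cord-like cells the anterior genes summed to 84.3 CPM in the KO against 264 in WT, the central genes to 1.996 against 49.0 and the posterior genes to 0.55 against 16.5. Named after their values were seen, the hindbrain genes Hoxb2 and Hoxa2 kept a share of their level: Hoxb2 was at 55.9, 33.6 and 31.8 CPM against 80.3 to 134 (-1.36 ± 0.20, edgeR adjusted p = 4.94e-05) and Hoxa2 at 11.7, 5.22 and 9.10 against 23.7 to 39.7 (-1.67 ± 0.30, edgeR adjusted p = 0.000363). Hoxb4, whose anterior limit lies in the posterior hindbrain, was reduced to 2 UMIs in the KO cells against 2108 in WT (0.166 ± 0.288 against 24.7 ± 11.4 CPM, -6.57 ± 1.04, edgeR adjusted p = 9.55e-05). Hoxb5 had 0 KO UMIs against 350 in WT and was at least 11.4-fold lower (edgeR adjusted p = 0.000392). Hoxb1 overlapped, at 30.1 ± 2.46 CPM in the KO and 38.4 ± 4.54 in WT (edgeR adjusted p = 0.207). Markers of this class summed to 704 to 1005 CPM in KO cells against 2170.1 to 4152 in WT, epiblast markers to 321 to 378 against 5.81 to 144, NMP markers to 141 to 166 against 256 to 321, immune markers to 8.70 to 12.2 against 2.86 to 4.91, and erythroid markers to 16.7 to 33.2 against 34.7 to 944, each without overlap. No marker of the class itself, of epiblast or of NMPs was at 0. In the joint clustering 99.4% of the KO cells were placed with the epiblast-like class. The part of these differences was not tested.

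In gut endoderm-like cells, summed CPM was 12.1 in the KO against 89.3 in WT for anterior, 23.8 against 278 for central and 7.87 against 97.3 for posterior genes, and the markers of the class summed to 1266 to 1440.0 CPM in the KO and 627 to 1416 in WT. Other marker lists did not overlap in gut endoderm-like cells: NMP markers were at 93.3 to 109 CPM in the KO against 192 to 257 in WT, hindbrain and spinal cord markers at 83.0 to 133 against 141 to 279.5, epiblast markers at 15.9 to 32.005 against 4.61 to 11.9, and erythroid markers at 10.7 to 18.4 against 26.4 to 1343. Their part in the Hox values was not tested. In endothelium-like cells the anterior sum was 126 CPM in the KO and 118 in WT, while the central sum was 72.8 against 151 and the posterior sum 20.1 against 97.2. The 8 members called in endothelium-like cells were Hoxa7, Hoxa9, Hoxa10, Hoxa11, Hoxb8, Hoxc6, Hoxc9 and Hoxc10, all of them central or posterior. Endothelium markers summed to 792 to 1233.5 CPM in these KO cells against 1291 to 1795 in WT, and epiblast markers to 14.8 to 18.6 against 1.63 to 7.51, without overlap, and their part in the Hox values was not tested. In ExE endoderm-like cells, which lie outside the embryo proper, the sums were low, between 1.85 and 8.08 CPM over both groups. Of the 23 members tested there, 19 had a negative log2 fold change (median -1.68), and none was called.

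**Figure D5:**
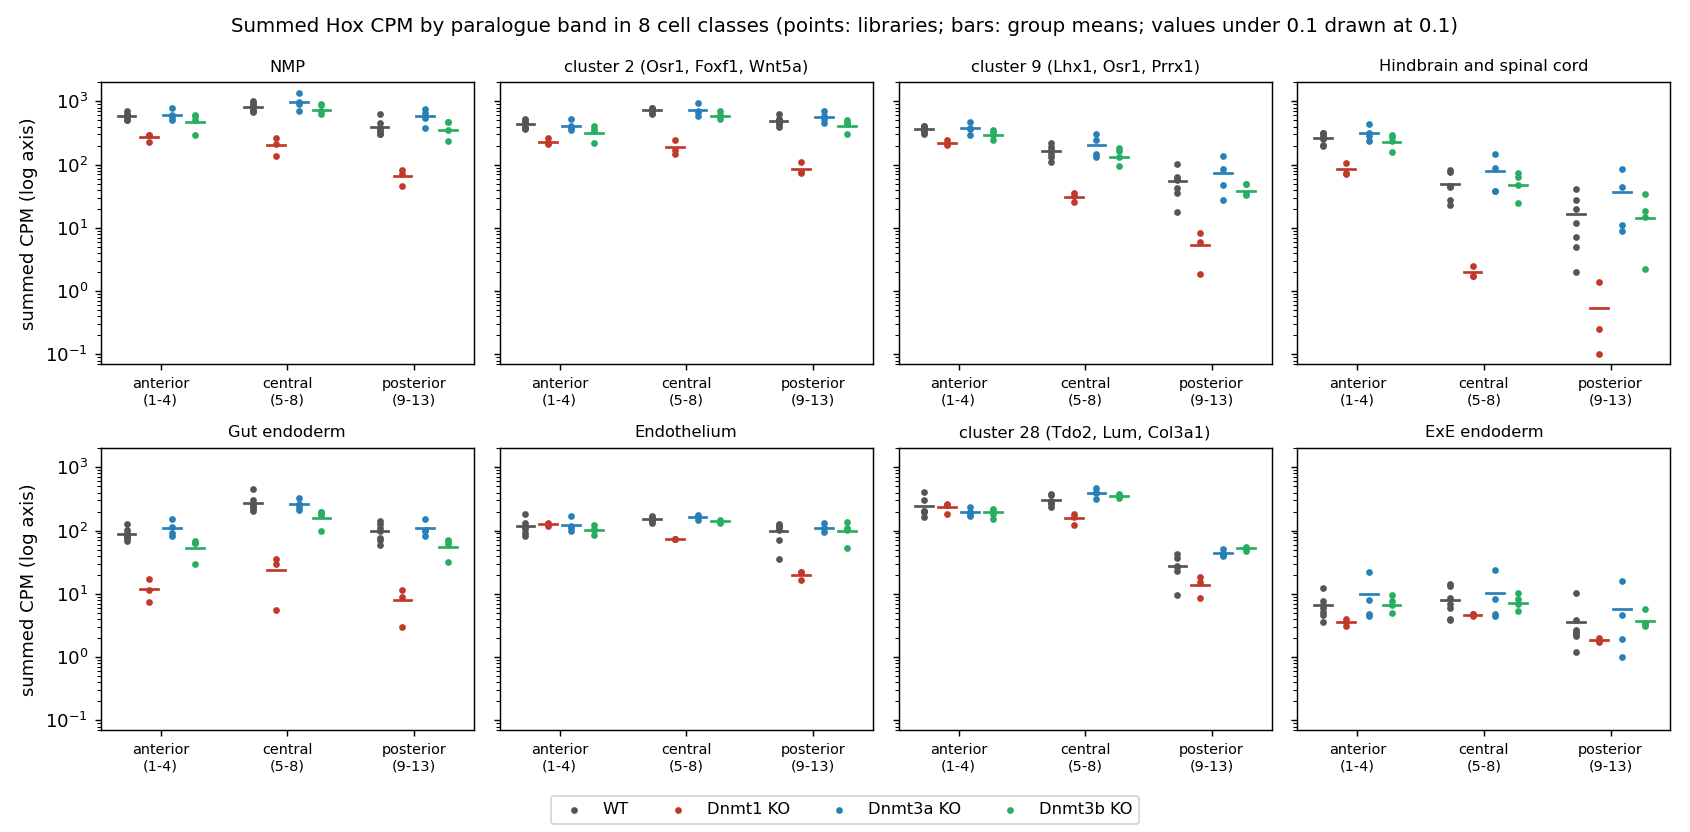
Summed CPM of the anterior, central and posterior Hox genes per embryo (points) and group mean (bars) in cell classes, by genotype. In NMP-like cells the posterior sums average 395 CPM in WT and 67.0 in the Dnmt1 KO, and in endothelium-like cells the anterior sums average 118 and 126.

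The share of single cells with Hox transcripts was read after each cell was thinned to 1500 UMIs, since depth differed between libraries. At least 1 posterior Hox UMI was seen in 44.3% ± 9.14 of WT NMP-like cells and in 9.68% ± 2.67 of Dnmt1 KO cells (97.1% and 63.2% before thinning, at median depths of 17061.5 to 59344.5 and 35642.5 to 61779 UMIs). For central genes the shares were 68.6% ± 5.59 and 24.7% ± 5.88, and for anterior genes 59.3% ± 5.31 and 33.6% ± 3.01. In cluster 2 the posterior share was 49.5% in WT and 11.5% in the KO, and in gut endoderm-like cells the central share was 20.3% and 2.79%. In endothelium-like cells the anterior share was 15.2% and 15.8%. In WT erythroid-like cells (median depth 12194 to 67077.5 UMIs), which carry few Hox transcripts, the shares were 0.872%, 0.650% and 0.648% for anterior, central and posterior genes. The part of free RNA in the shares of any class was not tested.

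No Hox gene was called in Dnmt3a KO embryos over the whole embryo (0 of 35 with edgeR and 0 with DESeq2, 3 at an unadjusted p under 0.05), where 0.219% of all genes were called, and for 0 members did the groups separate, which they did for 2.07% of all genes upwards and 0.176% downwards. Their median log2 fold change was 0.16, with 28 of 35 members positive, against 9499 of 18763 over all genes. An unadjusted edgeR p under 0.05 was reached by 1790 of all 18763 genes. The summed Hox level was 694 CPM in Dnmt3a KO 14 and 362 to 432 in the other 3. The member with the smallest p was Hoxc9, at 14.998, 16.1, 23.8 and 26.3 CPM in Dnmt3a KO 1, 2, 13 and 14, against 8.17 to 18.6 in WT (0.59 ± 0.20, edgeR adjusted p = 0.285). Dnmt3a KO 14 stood above its group for several members: Hoxc8 was at 88.7 CPM there and at 40.5 to 48.0 in the other 3, and Hoxb9 at 73.7 against 25.05 to 36.2. In classes 0 of 524 pairs were called with edgeR (79 at an unadjusted p under 0.05) and 0 with DESeq2, where 0.0855% of all pairs were called.

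In Dnmt3b KO embryos 0 of 35 members were likewise called over the whole embryo with edgeR and 0 with DESeq2 (6 at an unadjusted p under 0.05), where 1.82% of all genes were called. An unadjusted edgeR p under 0.05 was reached by 3374 of all 18763 genes. For 3 posterior members every Dnmt3b KO sample, with the CPM of libraries 1 and 2 averaged, was above every WT embryo, which held for 5.53% of all genes. For Hoxd11, library 1 taken alone lay inside the WT range. Hoxa13 was at 1.67, 1.80, 1.70 and 2.11 CPM in Dnmt3b KO 1, 2, 11 and 12 against 0.366 to 1.41 in WT, and its log2 fold change of 1.14 ± 0.34 did not pass (edgeR adjusted p = 0.0812). Hoxd13 was at 0.733, 0.768, 0.721 and 0.962 CPM against 0.282 to 0.606 (0.80 ± 0.30, edgeR adjusted p = 0.166), and Hoxd11 at 0.696, 0.864, 0.883 and 0.895 against 0.410 to 0.757 (0.58 ± 0.30, edgeR adjusted p = 0.314). By band, all 11 anterior members had a negative log2 fold change (median -0.38) and 11 of 13 posterior members a positive one (median 0.37), against 9769 negative and 8984 positive of all 18763 genes. Allantois-like cells, where Hoxa13, Hoxd11 and Hoxd13 are highest in WT, formed 4.68% ± 1.18 of Dnmt3b KO and 2.83% ± 1.62 of WT cells, and the part of this difference was not tested. All 3 KO groups were set against the same WT embryos, so their values are not independent of each other.

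Within classes 2 of 515 pairs were called with edgeR in the Dnmt3b KO, a smaller share than the 0.591% of all pairs called. Hox genes were thus not called more often than other genes. DESeq2 called 3 pairs, and its share over all pairs was not set beside that count. Of all genes 1.23% were called in cluster 2 and 0.595% in ExE mesoderm-like cells, the classes of the 2 pairs called with edgeR. Hoxa13 rose in cluster 2, from 2.28 ± 0.562 CPM in WT (1.27 to 3.18) to 5.99 ± 2.65 (4.35 to 9.05), a log2 fold change of 1.31 ± 0.22 (edgeR adjusted p = 0.00124). Hoxc9 rose in ExE mesoderm-like cells, from 5.82 ± 2.55 CPM (2.36 to 9.27) to 19.0 ± 10.2 (9.77 to 30.04), a log2 fold change of 1.75 ± 0.34 (edgeR adjusted p = 0.00958). The groups did not overlap in either pair. Dnmt3b KO 12 was the female embryo of this group by its Y-linked counts, the library counted with Cell Ranger 5.0.0 and one with Dnmt3a at 7.56 CPM, inside the range of the Dnmt3a KO embryos. In the joint clustering 478 cells of Dnmt3b KO 12 fell in joint cluster 41 (Gm13119, Tuba3b), against 0 to 2 in the other libraries of this group. In joint cluster 3 (Osr1, Lhx1, Ndnf) it had 122 cells, against 648 to 699. The part of these differences in the calls was not tested. Without Dnmt3b KO 12 both calls were lost (log2 fold changes 0.94 and 1.27, edgeR adjusted p = 0.0295 and 0.166), neither held with the replicate number as a block, and 0 of 493 pairs were called in the joint clustering with edgeR. The Hoxc9 call was also lost without Dnmt3a KO 1, 2, 13 or 14, without Dnmt3b KO 11 and without WT 2, 4, 6 or 7 (edgeR adjusted p from 0.0118 to 0.0287).

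Genes that act with or on the Hox clusters were read from lists over the whole embryo. Over all genes 14.1% were called in the Dnmt1 KO (6.05% lower and 8.09% higher), against which the counts below are to be read. An unadjusted edgeR p under 0.05 was reached by 8633 of all 18763 genes there. In Dnmt1 KO embryos 4 of 15 upstream regulators fell, among them Fgf8 and Wnt3a, signals of the tail bud, by -2.09 ± 0.29 and -1.75 ± 0.29, and Cdx4, a caudal homeobox activator of central Hox genes, by -1.91 ± 0.26 (log2 fold changes). Cdx4 went from 74.4 ± 23.8 CPM in WT to 18.6 ± 6.70. Among the cluster RNAs and Evx genes, 4 of 7 tested fell: Evx1, the homeobox gene next to the posterior end of HoxA, from 9.35 ± 2.59 to 3.12 ± 0.989 CPM (-1.4985 ± 0.23), and the non-coding RNAs Evx1os (-1.73 ± 0.26), Hoxaas3 (-2.30 ± 0.25) and Hoxb5os (-3.75 ± 0.45), which may share reads with genes on the opposite strand if strand was not used. None of 9 TALE cofactors (the Pbx, Meis and Pknox proteins that bind DNA with Hox proteins) was called with edgeR or DESeq2, although 8 had an unadjusted p under 0.05 and 8 a negative sign (median -0.42). Of 18 Polycomb genes, which keep silent Hox genes repressed, 2 rose (Phf19, 2.56 ± 0.38, and Cbx7, 1.52 ± 0.21), a share near that of all genes. Of 10 trithorax and H3K27 demethylase genes, which support active Hox genes, none was called with edgeR or DESeq2, with 6 at an unadjusted p under 0.05. Of 12 genes flanking the clusters 3 rose (Ttll6, 2.65 ± 0.45, Calcoco2, 2.12 ± 0.42, and Skap1, 1.09 ± 0.16, all in the flanks of HoxB). In Dnmt3a KO and Dnmt3b KO embryos 0 of the 72 list genes tested were called with edgeR or DESeq2, with 10 and 12 at an unadjusted edgeR p under 0.05. That p was reached by 1790 and 3374 of all 18763 genes.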

How the data were processed

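The authors counted sequencing reads with Cell Ranger (3.1.0 in 17 matrix headers and 5.0.0 in that of Dnmt3b KO 12) on mm10 and deposited raw UMI counts per gene and cell barcode, with no normalisation. For WT 1, Dnmt3b KO 11 and the libraries Dnmt3a KO 1 and 13 the reference also held the human genome. Here cells with at least 1500 UMIs, at most 30% mitochondrial and at most 35% ribosomal counts were kept, and Scrublet doublets were removed at 0.8% per 1000 cells (scanpy 1.11.5, Python 3.11.15). Up to 2500 cells per WT library were clustered on 2500 variable genes without Hox genes (50 components, 30 neighbours, Leiden resolution 2, leidenalg 0.10.2), giving 39 clusters of which 12 stayed unnamed. Every cell took the majority class of its 30 nearest WT cells. UMIs were summed per embryo, or per embryo and class with at least 25 cells, and tested with edgeR 4.0.16 (R 4.3.3; TMM, filterByExpr, quasi-likelihood, Benjamini-Hochberg over all genes of a fit) in 1 model over the 4 groups, with DESeq2 1.42.0 as an alternative. On simulated data for Dnmt1 KO against WT, 69% of genes with a log2 change of 1 and 100% of those with 2 reached an adjusted p under 1%. The changed genes were drawn from those over 1 CPM on average, with 1 fixed spread for all genes and without the fold criterion. Members under 1 CPM or with a larger spread are not covered by these rates. Full statistics were given for members called over the whole embryo, and class values for the class with most called members and the members called in most classes. Genes of the context lists were named only if called over the whole embryo, at most 6 per list, and some are not reported here. Members, lists and tests were chosen with earlier results of these data known. The labels give genotype and strain background but no litter, and p-values measure the spread between these embryos.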

Additional observations from a re-analysis of the deposited data

Results flagged for a closer look

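Dixon's test for a sample far from the others of its group was met in 9 of 76 groups of 4 to 7 libraries. The groups are Hox genes read in the same libraries, so they are not independent, and no expected count was set against them. Dnmt3a KO 14 was the high library in 5 of them: Hoxb1 at 32.9 CPM (next library 17.7), Hoxc8 at 88.7 (48.0), Hoxd1 at 19.2 (12.3), Hoxd3 at 4.16 (1.60) and Hoxd11 at 0.938 (0.668). Summed over all Hox genes this group ran from 362 to 694 CPM, with Dnmt3a KO 14 at the top. In WT, Hoxb13 was at 0.0672 CPM in WT 6 (next 0.0303), Hoxc12 at 0.0225 in WT 7 (0.00480) and Hoxd4 at 0.451 in WT 4 (0.306), and Hoxc12 was at 0.0119 in Dnmt3a KO 2 while the other libraries of that group had 0. The Hoxc12 values rest on 7 UMIs over all WT libraries and 2 over all Dnmt3a KO libraries.

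In erythroid-like cells Hoxd1 and Hoxd8 were above every WT embryo in the 3 Dnmt1 KO embryos, with log2 fold changes of 2.76 and 4.29, whereas they were below every WT embryo in 4 classes and 1 class. The difference between the classes was not tested. In the joint clustering 76.1% of the KO cells of this class fell among immune-like cells, immune markers (11.8 to 26.1 CPM against 0.513 to 1.81 in WT) and epiblast markers (16.5 to 22.8 against 2.16 to 2.89) were higher without overlap, and the 2 members called of 18 are a share near the 10.2% of all genes called there.

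The 4 libraries counted on the combined reference held UMIs on human HOX rows, which no comparison used: 164 in Dnmt3a KO 13, 142 in Dnmt3a KO 1, 227 in Dnmt3b KO 11 and 194 in WT 1. These were 0.754%, 0.622%, 0.915% and 0.838% of all UMIs on human rows in those libraries.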

How the results depend on the processing

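The direction of every called member held under each alternative run. Over the whole embryo, the Dnmt1 KO count of 27 became 20 with samples thinned to the smallest and 21 with the replicate number as a block, and ran from 21 (without Dnmt1 KO 2) to 30 (without Dnmt1 KO 3) with single libraries left out. Over all genes the main run called 2652 of 18763. That count became 1147 of 16107 after thinning, 1428 of 18718 under the block, 1917 of 19265 without Dnmt1 KO 2 and 3123 of 19256 without Dnmt1 KO 3. Same-numbered WT and KO embryos did not deviate together (correlations from -0.25 to 0.20). The labels do not say whether the numbers pair embryos, so whether the block fits the design is not known. Under the block the count against Dnmt3a KO fell from 28 to 14, where 643 of all 18718 genes were called. The class counts became 1 for Dnmt3a KO and 0 for Dnmt3b KO. Leave-one-out ranges were 24 to 29 against Dnmt3a KO, 17 to 27 against Dnmt3b KO, and 0 to 0 for Dnmt3a KO and Dnmt3b KO against WT, and the last count became 1 with extraembryonic and blood cells left out. In classes, the Dnmt1 KO count of 95 became 26 (of 77 pairs tested) under joint clustering of all embryos, which was added after the data were seen, 47 after thinning and 38 with at least 50 cells per class, with 64 to 100 on leaving out libraries. The shares of all gene and class pairs called under these settings were not set beside the counts. The class count of 0 for the Dnmt3a KO became 2 without a low-count filter and ran from 0 to 3 (without WT 1). That of 2 for the Dnmt3b KO became 0 with joint clustering, 4 without the filter, 1 after thinning, 1 with the reference as covariate, 1 with its libraries 1 and 2 separate and 1 with at least 50 cells, and ran from 0 (without Dnmt3b KO 12) to 3 (without WT 1). The share of WT NMP-like cells with a posterior Hox UMI went from 44.3% to 81.7% at 5000 UMIs per cell (41.4% to 45.7% over left-out embryos). Fits could not be run for 5 combinations of class and setting.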
